A study of Homo sapiens with 60 samples.

Results

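The genes described here are 10 that textbooks list as targets or regulators of YAP and TAZ: the secreted CCN proteins CCN1 (CYR61), CCN2 (CTGF) and CCN4 (WISP1), the target genes ANKRD1, THBS1, F3 and AXL, and the pathway members AMOTL2, LATS2 and AJUBA. They were taken by symbol from a table of 60675 genes, and each of the 10 matched 1 Ensembl identifier and passed the filter on low counts, which 17191 genes passed. The cells were SW1783, an established human astrocytoma line, and RNA was taken 24 h after a vehicle or a water extract was added. Citri Unshius Pericarpium (dried mandarin peel), Cimicifugae Rhizoma, Bupleuri Radix (a root), Aconiti Lateralis Radix Preparata (processed aconite root) and the decoctions Yijung-tang and Banhasasim-tang had 3 libraries at each of 500, 100 and 20 µg/mL, the high, medium and low dose. The vehicle, 0.1% DMSO by the sample labels, had 3 libraries, and Bojungikgi-tang had 1 library per dose. The 4 herbs are called Citri, Cimicifugae, Bupleuri and Aconiti below. Levels are CPM, counts scaled to the size of the library with TMM factors, and changes are log2 fold changes, each with its standard error (SE) from the model. Genes are said to be called where edgeR's quasi-likelihood test gave a p under 0.05 after Benjamini-Hochberg adjustment over all genes tested, and every adjusted p below comes from that test.

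In the Hippo pathway the kinases MST and LATS phosphorylate YAP and TAZ and keep them out of the nucleus. When the kinases are inactive, as in spread cells on a stiff surface, YAP and TAZ enter the nucleus and act on DNA through TEAD factors, often next to AP-1. CCN1, CCN2 and ANKRD1 are the most used readouts of that activity, and AMOTL2, LATS2 and AJUBA belong to the pathway themselves. Several of these genes also respond to the actin-sensing factors MRTF and SRF, to TGF-beta and to growth factors, so their level alone does not report on YAP.

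The libraries held 18.9 to 36.4 M (mega) counts. Mitochondrial genes took 5.03% to 10.84% of the counts, with the vehicle at 5.03% to 5.29% and the highest shares in the medium dose of Aconiti (10.56% to 10.84%). The part of this share in the results was not tested. Library 3 of the low dose of Citri and library 3 of the high dose of Cimicifugae stood farthest from their groups, with mitochondrial shares of 7.37% and 7.69%. Calls of members given below that were lost without both are named, and some counts are also given without them. The high dose of Yijung-tang was uneven too, with shares of 8.21%, 6.58% and 5.94%. Its replicates differed by 6.75 to 9.81 times sampling noise (chi-square per degree of freedom). The sample codes place the vehicle in a set of its own and the extracts in pairs (Citri with Cimicifugae, Bupleuri with Aconiti, Yijung-tang with Banhasasim-tang). In a comparison with the vehicle, code set and treatment cannot be told apart, and all comparisons with it share its 3 libraries, so the changes between doses of an extract, which share a set, lead below. In the vehicle the astrocyte markers GFAP (0.137 CPM), S100B (0.113), AQP4 (0), ALDH1L1 (0.0287) and SLC1A2 (0.366) were at or near 0, whereas SLC1A3 stood at 33.9 CPM. The glioma or mesenchymal markers VIM, CD44, FN1 and CHI3L1 stood at 4344, 2796, 5388 and 1347 CPM and NES at 10.5. Of the neuronal markers, SNAP25 (34.6 CPM), SYT1 (31.4) and NEFL (6.2) were detected and RBFOX3 (0.154) was near 0. Of the epithelial ones, KRT18 (226 CPM) and KRT8 (19.2) were detected and EPCAM (0.0844) and CDH1 (0.017) were near 0.

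In vehicle cells the 10 genes spanned a wide range of levels. Per kilobase of annotated exon, THBS1 stood highest at 198.4 CPM, followed by AXL at 124.4, CCN1 at 83.2, F3 at 46.4 and CCN2 at 41.7. AJUBA (16.5), AMOTL2 (8.18), LATS2 (6.19), ANKRD1 (5.99) and CCN4 (2.60) were lower on this scale. The smallest count of any member in any library was 20.9, for CCN4. On GRCh38, CCN1 lies on chromosome 1 (85580761 to 85583962), CCN2 on chromosome 6 (131948176 to 131951373) and ANKRD1 on chromosome 10 (90912096 to 90921276). THBS1 lies on chromosome 15 (39581079 to 39599466), F3 on chromosome 1 (94529225 to 94541800) and AXL on chromosome 19 (41219203 to 41261766). AMOTL2 is on chromosome 3 (134355874 to 134375479), LATS2 on chromosome 13 (20973032 to 21061547) and AJUBA on chromosome 14 (22971174 to 22982642). THBS1, AMOTL2, LATS2 and AJUBA overlap another annotated gene on their own strand and CCN2 and AXL only a gene on the other strand. Reads of these genes may be harder to assign. The deposited count was not whole in 98.3% of libraries for THBS1, 86.7% for CCN4, 31.7% for CCN2 and 6.67% for AMOTL2. It was whole in all libraries for LATS2, AJUBA, AXL, CCN1, ANKRD1 and F3. CCN4 overlaps no other annotated gene.

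The promoters of CCN2, ANKRD1, THBS1 and F3 are shown because the results below turn on these genes and their promoters differ in the motifs they hold. They are the 250 bases before the RefSeq start (GRCh38.p14), all given on the gene's own strand. The TEAD motif GGAATG was searched on both strands and the AP-1 motif TGANTCA, which reads alike on both, once; capitals mark matches of either. CCN2, chr6:131951373-131951622 on the minus strand, has GGAATG at 3 places, 169 to 164, 104 to 99 and 95 to 90 bases before the start.
CCN2: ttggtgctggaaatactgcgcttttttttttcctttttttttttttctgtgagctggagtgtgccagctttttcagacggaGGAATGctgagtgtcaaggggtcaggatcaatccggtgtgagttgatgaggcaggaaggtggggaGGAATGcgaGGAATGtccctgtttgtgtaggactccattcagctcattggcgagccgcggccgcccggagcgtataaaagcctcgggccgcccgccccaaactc
ANKRD1, chr10:90921088-90921337 on the minus strand, has the TEAD motif at 220 to 215 and 128 to 123 bases before the start and 1 AP-1 match at 195 to 189.
ANKRD1: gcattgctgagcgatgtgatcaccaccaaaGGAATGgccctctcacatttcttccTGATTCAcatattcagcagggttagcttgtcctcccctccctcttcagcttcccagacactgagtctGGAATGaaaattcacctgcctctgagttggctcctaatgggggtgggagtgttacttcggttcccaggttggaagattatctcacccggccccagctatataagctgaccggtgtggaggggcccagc
THBS1, chr15:39580829-39581078 on the plus strand, has 1 TEAD match, at 46 to 41 bases before the start.
THBS1: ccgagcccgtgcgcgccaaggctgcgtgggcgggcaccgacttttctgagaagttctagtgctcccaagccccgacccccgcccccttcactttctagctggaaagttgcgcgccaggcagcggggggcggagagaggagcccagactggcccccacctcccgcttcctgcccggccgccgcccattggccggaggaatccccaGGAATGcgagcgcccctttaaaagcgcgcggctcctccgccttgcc
F3, chr1:94541760-94542009 on the minus strand, has no TEAD match but an AP-1 match at 223 to 217 and another at 210 to 204 bases before the start.
F3: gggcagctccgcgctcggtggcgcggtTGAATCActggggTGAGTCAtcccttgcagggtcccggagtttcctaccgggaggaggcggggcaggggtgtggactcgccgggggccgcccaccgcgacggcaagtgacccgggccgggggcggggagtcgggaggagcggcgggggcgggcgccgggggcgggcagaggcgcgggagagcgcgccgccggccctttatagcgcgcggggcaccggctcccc
Of all 35093 promoters of this length, 11.9% hold at least 1 GGAATG, 0.94% at least 2 and 0.0826% at least 3, while 6.57% hold at least 1 TGANTCA and 0.402% at least 2. Promoters were searched for 8 of the 10 genes (11 promoters, with 2 each for AMOTL2, AXL and AJUBA), and none for CCN1 or CCN4. Of the 8 genes, 6 had the TEAD motif and 2 the AP-1 motif in at least 1 promoter. For AMOTL2, AXL and AJUBA only 1 of the 2 promoters held the TEAD motif, and that promoter lay inside the annotated gene. These numbers are per gene and the shares above are per promoter, so they cannot be compared directly. The CArG box, the SRF motif, was found in 0 of the 8 genes and in 1.16% of all promoters. A match describes the letters in this window and is not evidence of binding.

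Between the low and the high dose, the members moved in different directions with different extracts. With Cimicifugae 7 of 10 were called lower and 0 higher, while 25.1% of all genes tested were called in that comparison. With Citri 4 were lower and 0 higher (18.2% of all genes called), and with Yijung-tang 4 lower and 1 higher (21.7%). Bupleuri had 4 higher and 1 lower where only 4.37% of all genes were called. With Banhasasim-tang 2 were higher and 2 lower (6.67%). With Aconiti all 10 were called, 6 higher and 4 lower, where 57.8% of all genes were called. Without the 2 libraries that stood apart, 7 were called with Cimicifugae and 4 with Citri. The median change of the 10 was 0.17 with Bupleuri, 0.19 with Aconiti, -0.07 with Banhasasim-tang, -0.11 with Yijung-tang, -0.16 with Citri and -0.21 with Cimicifugae. The median over all genes tested lay between 0 and 0.01 in each of the 6.

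**Figure D1:**
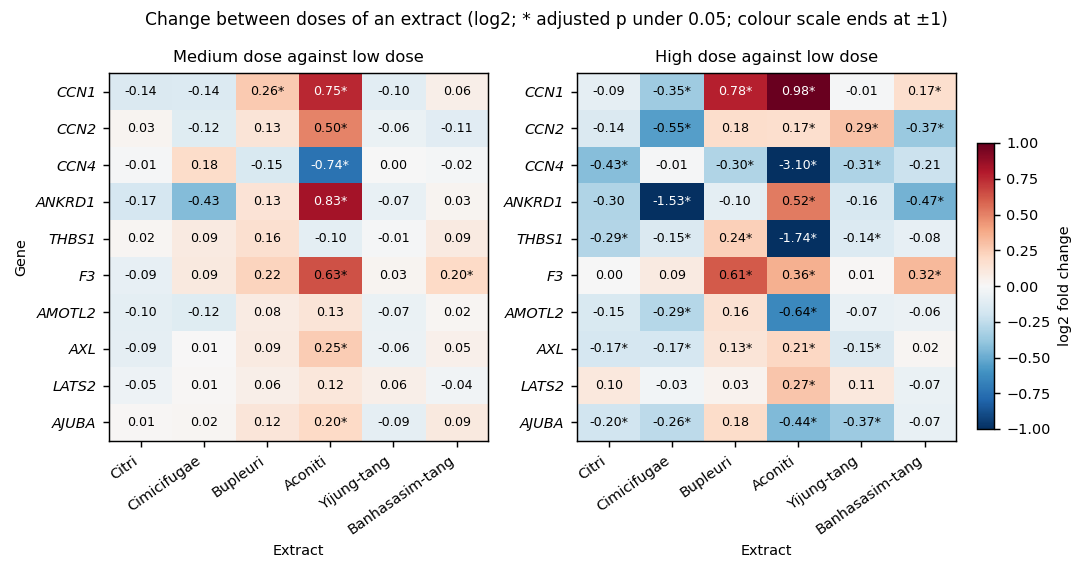
Log2 fold change of each member between low and medium dose (left) and between low and high dose (right), with 1 column per extract and a star where the adjusted p was under 0.05. The largest falls are those of CCN4 and THBS1 with Aconiti and of ANKRD1 with Cimicifugae, and the largest rises are those of CCN1 at the high dose and ANKRD1 at the medium dose of Aconiti.

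CCN1, a matricellular protein that binds integrins and is an immediate early gene of growth factors, rose with dose in 2 of the herbs. With Aconiti its 3 libraries read 280.7, 262.1 and 270.0 CPM at the low dose, 450.0, 461.3 and 458.0 at the medium dose and 522.4, 521.0 and 565.6 at the high dose. Each dose lay above the one before with no overlap between libraries. The change from low to high was 0.98 ± 0.052 (SE, n = 3 per group), a fold of 1.98 (adjusted p = 4.96e-22). With Bupleuri, CCN1 went from 250.4, 230.9 and 236.0 CPM at the low dose to 420.9, 382.6 and 424.5 at the high dose. These groups did not overlap either, and the change was 0.78 ± 0.052 (SE, n = 3 per group, adjusted p = 6.6e-16). The rise with Bupleuri was smaller than that with Aconiti by 0.21 ± 0.074 (log2, SE), called at an adjusted p of 0.0176. That difference lost its call when any of 4 libraries was left out, at -0.168 without the first low-dose Bupleuri library, -0.156 without the second high-dose Bupleuri library, -0.181 without the second low-dose Aconiti library and -0.157 without the third high-dose Aconiti library. The medium dose of Bupleuri stood at 287.0 ± 14.9 CPM (SD, n = 3), 0.26 ± 0.053 (SE) above the low dose (adjusted p = 0.0292). It was the 1 member called there, with 0.0407% of all genes called, and its call was lost when any of 5 libraries was left out: each of the 3 medium-dose libraries (log2 0.219, 0.288 and 0.278) and low-dose libraries 2 and 3 (0.235 and 0.253). Over its alternatives the adjusted p ran from 4.63e-07 to 0.429.

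Cimicifugae was the extract with which CCN1 fell between doses. Its libraries read 196.6, 204.6 and 190.2 CPM at the low dose and 152.6, 158.6 and 152.1 at the high dose. All 3 high-dose libraries lay below all low-dose and vehicle libraries (199.3, 192.9 and 220.2 CPM in the vehicle), and the change between doses was -0.35 ± 0.054 (SE, n = 3 per group, adjusted p = 1.61e-06). With the decoctions, CCN1 was above the vehicle at every dose and nearly flat across them. Yijung-tang gave 280.8 ± 17.5, 261.3 ± 8.25 and 278.9 ± 8.94 CPM from low to high (SD, n = 3), and its change from low to high was -0.01 ± 0.052 (SE). Banhasasim-tang gave 240.9 ± 16.6, 251.6 ± 10.4 and 270.6 ± 7.17 CPM (SD, n = 3), with a change from low to high of 0.17 ± 0.052 (SE, adjusted p = 0.0395). That call was lost without high-dose library 2 or 3 (0.150 and 0.171) or low-dose library 2 or 3 (0.146 and 0.136), and the adjusted p ran from 0.00131 to 0.223 over its alternatives. Citri did not move CCN1 past the threshold, with 223.4 ± 11.0, 202.4 ± 8.91 and 209.2 ± 12.1 CPM from low to high (SD, n = 3). In these bulk samples fewer cells that express a gene and less RNA per cell cannot be told apart.

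**Figure D2:**
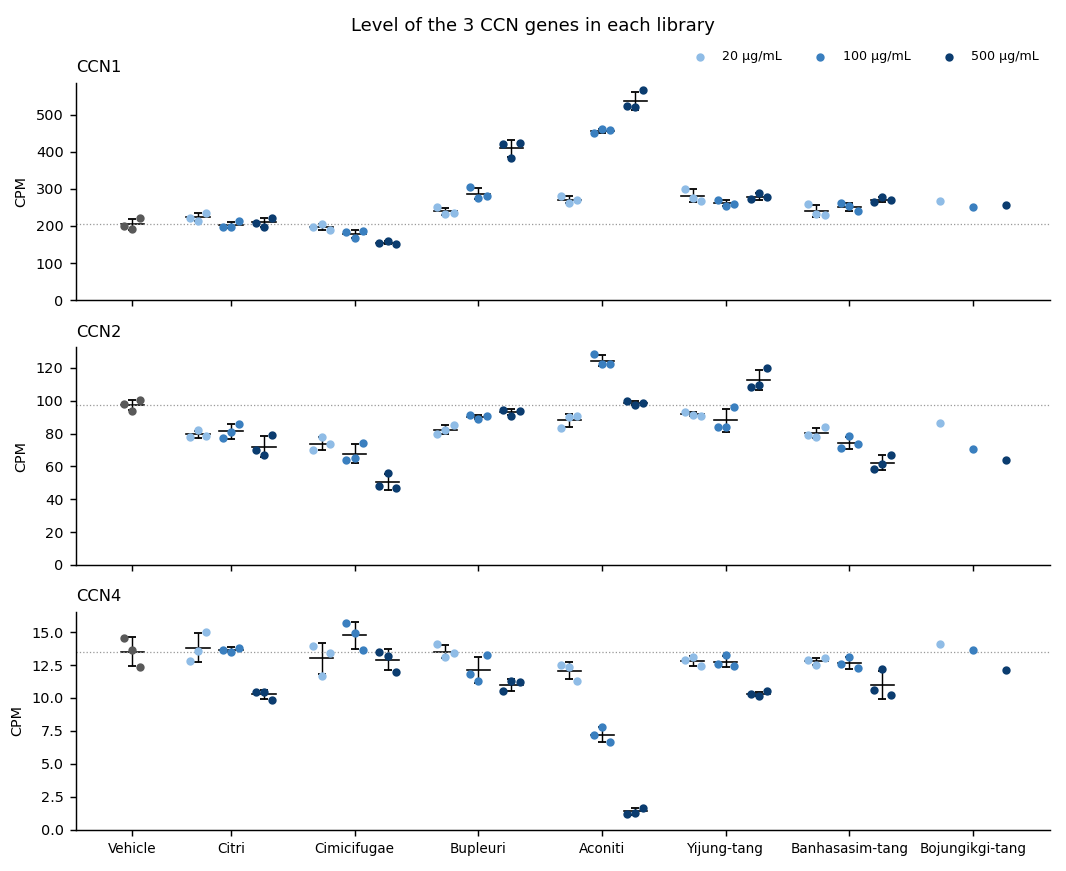
CPM of CCN1, CCN2 and CCN4 in each library (points) by extract and dose, with bars for the mean ± SD of 3 libraries and a dotted line at the vehicle mean. CCN1 climbs with the dose of Aconiti and Bupleuri, CCN2 is lowest at the high dose of Cimicifugae, and CCN4 drops to 1.39 CPM at the high dose of Aconiti.

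CCN2, the relative of CCN1 linked to fibrosis and to TGF-beta, did not follow CCN1 in every extract. Its libraries read 97.9, 94.0 and 100.5 CPM in the vehicle. With Cimicifugae they read 70.0, 78.0 and 73.5 CPM at the low dose and 48.4, 55.9 and 47.1 at the high dose, with no overlap. The change between these doses was -0.55 ± 0.062 (SE, n = 3 per group, adjusted p = 1.18e-09), and the high dose lay 0.95 below the vehicle on the log2 scale (-0.952). With Banhasasim-tang CCN2 went from 79.2, 78.0 and 83.9 CPM at the low dose to 58.4, 61.4 and 67.0 at the high dose, again with no overlap. That fall was -0.37 ± 0.059 (SE, n = 3 per group, adjusted p = 6.61e-06). The falls with Cimicifugae and Banhasasim-tang differed by -0.18 ± 0.085 (SE), which did not pass the threshold (adjusted p = 0.168).

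Yijung-tang moved CCN2 the other way. Its libraries read 93.2, 91.6 and 90.9 CPM at the low dose and 108.5, 109.8 and 119.7 at the high dose. The high-dose libraries lay above all low-dose and vehicle libraries, with a change of 0.29 ± 0.056 (SE, n = 3 per group, adjusted p = 8.77e-05). Between the decoctions, which share a code set, the dose changes of CCN2 differed by 0.67 ± 0.081 (SE, adjusted p = 3.43e-08). At the high dose itself Yijung-tang lay above Banhasasim-tang by 0.86 ± 0.058 (SE, adjusted p = 9.87e-17). They differed by 0.24 ± 0.057 (SE) at the medium dose (2.47% of all genes called), a call lost without the first medium-dose Banhasasim-tang library (0.214) or the third medium-dose Yijung-tang library (0.177), and were not called at the low dose (0.19 ± 0.057, SE).

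With Aconiti, CCN2 peaked at the medium dose. Its libraries read 83.2, 90.0 and 90.8 CPM at 20 µg/mL, 128.4, 122.5 and 122.3 at 100 µg/mL and 99.9, 97.6 and 98.9 at 500 µg/mL. No library of the medium dose overlapped the other doses. The rise from low to medium was 0.50 ± 0.058 (SE, adjusted p = 1.92e-09) and the fall from medium to high -0.33 ± 0.057 (SE, adjusted p = 3.06e-06). The net change from low to high was 0.17 ± 0.059 (SE, adjusted p = 0.0129), which lost its call without the first low-dose library (0.122) or the third high-dose library (0.150), with adjusted p from 5e-04 to 0.112 over its alternatives. With Bupleuri CCN2 stood at 82.3 ± 2.69, 90.1 ± 1.24 and 92.9 ± 1.79 CPM from low to high (SD, n = 3), and with Citri at 79.6 ± 2.1, 81.3 ± 4.43 and 72.0 ± 6.35. Neither change from low to high passed the threshold. The Bupleuri libraries read 79.57, 82.32 and 84.95 CPM at the low dose and 94.13, 90.88 and 93.8 at the high dose. They did not overlap, as for 8 of the 10 members there, of which 5 were called. The share of all genes without overlap was not counted, so no conclusion is drawn from this.

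The ratio of CCN1 to CCN2 CPM was 2.04, 2.05 and 2.19 in the vehicle. With Aconiti it was 3.09 on average at the low dose, 3.67 ± 0.145 at the medium dose and 5.43 ± 0.258 at the high dose (SD, n = 3). With Bupleuri the 3 high-dose libraries gave 4.47, 4.21 and 4.53, and with Banhasasim-tang 4.52, 4.53 and 4.03. Between low and high dose CCN1 rose with Bupleuri, while the smaller change of CCN2 was not called. With Banhasasim-tang CCN2 fell by 0.37 and CCN1 rose by 0.17 on the log2 scale, the latter with the limits given above. Yijung-tang went down from 3.05 at the low dose to 2.48 ± 0.159 at the high dose (SD, n = 3). Against the vehicle, the 2-sided exact permutation test gave p = 0.1 for each of the 18 groups of 3 libraries, the smallest value that 3 against 3 allows.

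**Figure D3:**
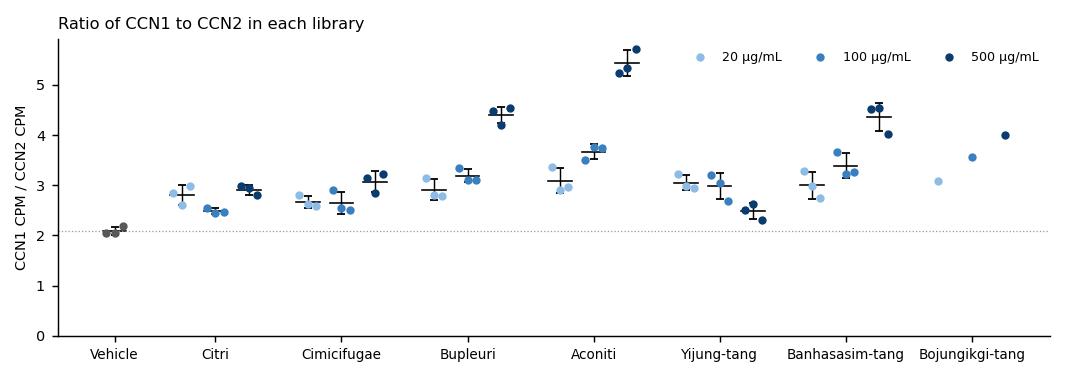
Ratio of CCN1 to CCN2 CPM in each library (points) by extract and dose, with the mean ± SD of 3 libraries and the vehicle as reference. The high doses of Aconiti, Bupleuri and Banhasasim-tang average 5.43, 4.4 and 4.36, against 3.09, 2.91 and 3.0 at their low doses and 2.09 in the vehicle.

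CCN4, a target of Wnt signalling as well, was the lowest of the 10 per kilobase and had the largest change. It lies on chromosome 8 (133191039 to 133231690). With Aconiti its libraries read 12.5, 12.3 and 11.3 CPM at the low dose, 7.18, 7.82 and 6.66 at the medium dose and 1.21, 1.3 and 1.67 at the high dose. Each dose lay below the one before with no overlap. The fall from low to high was -3.10 ± 0.114 (SE, n = 3 per group, adjusted p = 1.75e-28), a fold of 0.116, and it ranked 125 of 17191 genes by size in that comparison. Smaller falls were called with Citri (-0.43 ± 0.073, SE), Yijung-tang (-0.31 ± 0.072) and Bupleuri (-0.30 ± 0.072), which ended at 10.3 ± 0.354, 10.3 ± 0.17 and 11.0 ± 0.425 CPM (SD, n = 3). The call with Bupleuri was lost without its first high-dose library (-0.266) or first low-dose library (-0.269), with adjusted p from 0.00301 to 0.0672 over its alternatives. With Cimicifugae, where CCN1 and CCN2 fell, CCN4 stood at 13.02, 14.8 and 12.9 CPM from low to high on average, a change of -0.01 ± 0.071 (SE). The dose change of CCN4 with Aconiti differed from that with each of the other 5 extracts by at least 2.68 on the log2 scale, all called.

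Of the other CCN genes measured, CCN3 was called lower with Yijung-tang (-0.29) and CCN6 higher with Aconiti (1.80), and CCN5 was not called with any of the 6 extracts between low and high dose.

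ANKRD1, a nuclear cofactor of muscle and one of the most used YAP readouts, had its largest change with Cimicifugae. Its libraries read 13.4, 9.30 and 12.9 CPM in the vehicle. With Cimicifugae they read 10.3, 11.8 and 8.70 CPM at the low dose and 2.98, 3.86 and 3.85 at the high dose, with a medium-dose mean of 7.60 ± 0.454 (SD, n = 3). The high-dose libraries lay far below all others of that extract. The change from low to high was -1.53 ± 0.141 (SE, n = 3 per group, adjusted p = 4.99e-12), a fold of 0.345, and ranked 116 of 17191 genes by size. With Banhasasim-tang ANKRD1 fell from 10.3, 9.22 and 10.2 CPM to 7.06, 7.44 and 6.98 (-0.47 ± 0.119, SE, adjusted p = 0.00717). The falls with Cimicifugae and Banhasasim-tang differed by -1.06 ± 0.187 (SE, adjusted p = 5.63e-05).

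With Aconiti ANKRD1 rose instead, from 13.1 ± 1.75 CPM at the low dose to 22.5, 25.6 and 21.9 at the medium dose and 16.7, 20.6 and 18.9 at the high dose. As for CCN2, the medium dose was the highest. The change from low to medium was 0.83 ± 0.105 (SE, adjusted p = 1.94e-08) and that from medium to high -0.31 ± 0.1 (SE, adjusted p = 0.00799). The latter lost its call without the first high-dose library (-0.242) or the second medium-dose library (-0.247), with adjusted p from 0.000394 to 0.0713 over its alternatives. The dose changes with Cimicifugae and Aconiti differed by -2.05 ± 0.178 (SE, adjusted p = 6.63e-14). ANKRD1 was not called between doses of Citri, Bupleuri or Yijung-tang.

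THBS1, thrombospondin 1, a matrix protein that activates latent TGF-beta, was the most abundant member. With Aconiti its libraries read 1643, 1617 and 1533 CPM at the low dose, 1509, 1531 and 1440 at the medium dose and 517.9, 460.4 and 459.6 at the high dose. The low and medium doses differed by less than the threshold (-0.10, adjusted p = 0.0702), and the high dose lay far below both. The change from low to high was -1.74 ± 0.04 (SE, n = 3 per group, adjusted p = 9.66e-37), a fold of 0.300. With Bupleuri THBS1 rose from 1687 ± 70.6 CPM at the low dose to 2012, 2022 and 1933 at the high dose (0.24 ± 0.039, SE, adjusted p = 2.78e-05). These opposite changes differed by 1.98 ± 0.056 (SE).

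Smaller falls of THBS1 were called with Citri (-0.29 ± 0.039, SE, to 1358 ± 73.4 CPM, SD, n = 3), Cimicifugae (-0.15 ± 0.039) and Yijung-tang (-0.14). The call with Cimicifugae did not hold when only the groups compared were fitted (adjusted p = 0.0757, from 0.000866 over its alternatives). The call with Yijung-tang did not hold in that fit (0.0603) or without the first high-dose library (-0.110, adjusted p = 0.066, from 0.000557 over its alternatives). Of the 4 other genes of the thrombospondin family, THBS2 was called lower in 5 of the 6 extracts, by -0.78 with Aconiti and by -0.19 to -0.30 with Bupleuri, Cimicifugae, Citri and Banhasasim-tang. THBS3 was lower with Banhasasim-tang (-0.42), Bupleuri (-0.27) and Yijung-tang (-0.23) and higher with Aconiti (0.20). THBS4 was higher with Cimicifugae (1.27) and Aconiti (0.73), and COMP was called in 0 of the 6.

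F3, tissue factor, the membrane protein that starts blood clotting, rose with dose in 3 extracts. With Bupleuri its libraries read 132.7, 125.8 and 124.1 CPM at the low dose and 197.3, 195.7 and 190.9 at the high dose, above all vehicle libraries (134.8, 125.8 and 139.5 CPM). The change was 0.61 ± 0.048 (SE, n = 3 per group, adjusted p = 1.5e-13). With Banhasasim-tang it went from 129.3, 125.4 and 126.6 CPM to 161.1, 159.2 and 156.0, with no overlap (0.32 ± 0.048, SE, adjusted p = 2.13e-06). With Aconiti the low dose averaged 133.5 ± 3.9 CPM, and the medium dose was the highest at 201.2, 209.0 and 210.7 CPM. The high dose read 174.4, 169.0 and 169.2 CPM, between the other doses with no overlap. The change from low to medium with Aconiti was 0.63 ± 0.049 (SE) and from medium to high -0.28 (adjusted p = 3.18e-06). From low to high, F3 changed by 0.36 ± 0.049 with Aconiti, and this differed from Banhasasim-tang by 0.03 ± 0.068 (SE), not called (adjusted p = 0.723). Citri, Cimicifugae and Yijung-tang left F3 without a call between low and high dose.

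The medium dose of Banhasasim-tang already lay above the low dose for F3 (0.20 ± 0.048, SE, adjusted p = 0.0407), the 1 member called there with 0.506% of all genes called. That call was lost without medium-dose library 1 or 3 (0.161 and 0.203) or without any of the 3 low-dose libraries (0.209, 0.187 and 0.194), and the adjusted p ran from 0.00173 to 0.346. Of the 8 genes of tissue factor signalling and plasminogen activation, 5 were called higher and 2 lower with Aconiti, where 57.8% of all genes were called. The same counts came with Banhasasim-tang, where 6.67% of all genes were called. They were 5 and 1 with Yijung-tang (21.7%), 4 and 2 with Cimicifugae (25.1%), 2 and 3 with Citri (18.2%) and 1 and 1 with Bupleuri (4.37%). THBD, the thrombin receptor thrombomodulin, rose with 5 extracts, by 3.56 with Aconiti and by 0.34 to 0.79 with Cimicifugae, Bupleuri, Banhasasim-tang and Yijung-tang. The inhibitor TFPI2 and the urokinase receptor PLAUR rose with 4 each, and the thrombin and protease receptors F2R and F2RL1 fell with 5 each.

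AXL, a receptor tyrosine kinase whose ligand is GAS6, changed little but with small errors. With Aconiti it stood at 716.3 ± 14.4, 852.0 ± 9.62 and 826.1 ± 21.4 CPM from low to high (SD, n = 3), a change of 0.21 ± 0.025 from low to high (SE, adjusted p = 7.81e-10). With Bupleuri it rose by 0.13 ± 0.025 to 710.0 ± 8.98 CPM. It fell with Citri (-0.17 ± 0.025, to 568.7 ± 9.24 CPM), Cimicifugae (-0.17 ± 0.025, to 543.0 ± 3.2 CPM) and Yijung-tang (-0.15, to 595.0 ± 15.8 CPM), and it was not called with Banhasasim-tang. GAS6 was called lower with Aconiti (-0.44), Yijung-tang (-0.17) and Cimicifugae (-0.14). The other ligand, PROS1, was lower with Aconiti (-0.28) and Yijung-tang (-0.21) and higher with Citri (0.19), while the relatives TYRO3 (0.27) and MERTK (1.80) were called higher with Aconiti.

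**Figure D4:**
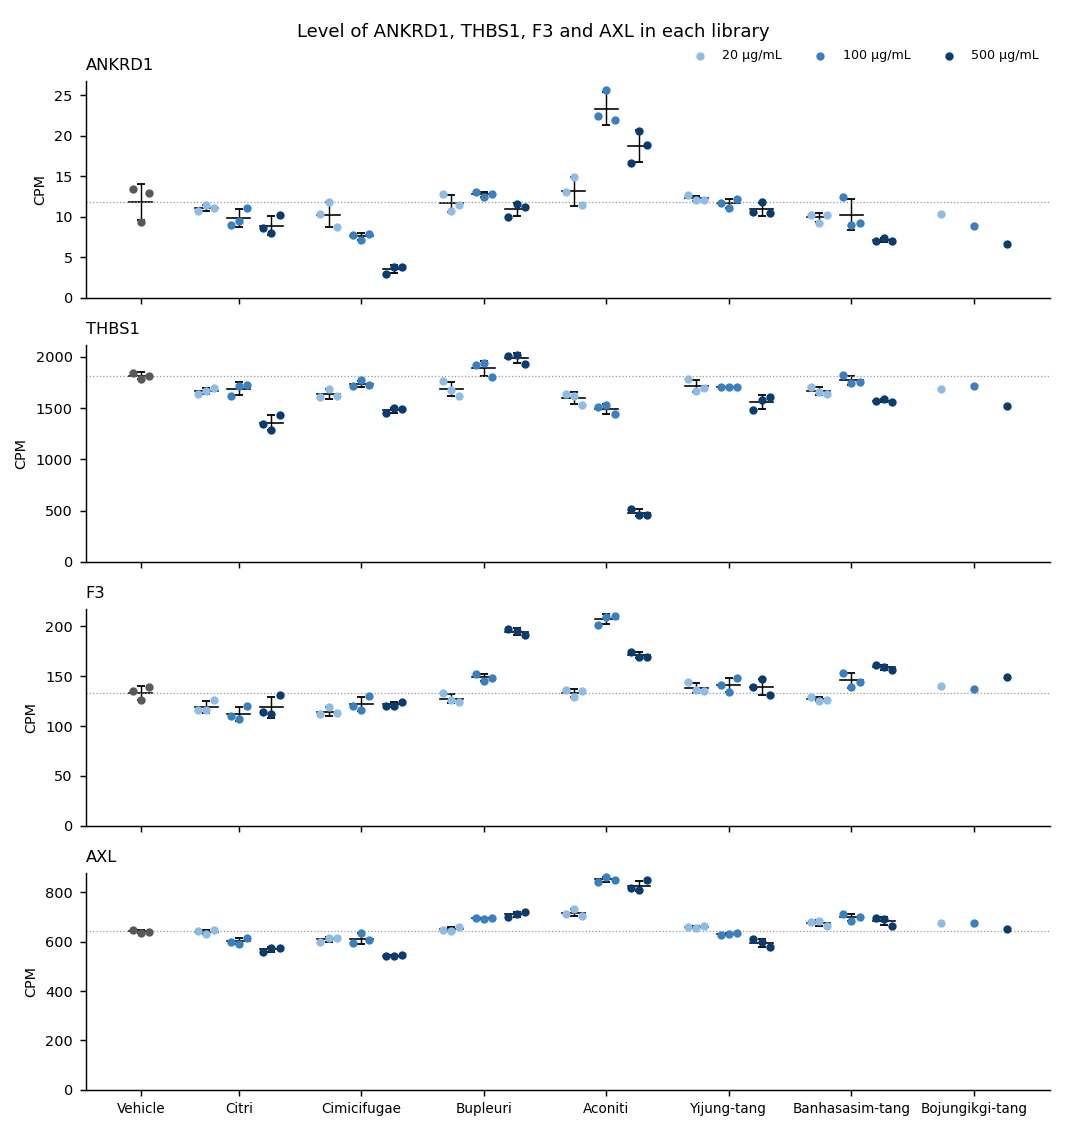
CPM of ANKRD1, THBS1, F3 and AXL in each library (points) by extract and dose, with the mean ± SD of 3 libraries and a dotted line at the vehicle mean. ANKRD1 is lowest at the high dose of Cimicifugae (3.56 CPM), THBS1 at the high dose of Aconiti (479.3 CPM), and F3 is raised at the high doses of Bupleuri, Aconiti and Banhasasim-tang.

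AMOTL2, an angiomotin that binds YAP, read 53.2 ± 1.15 CPM at the low dose of Aconiti, 57.9 ± 5.09 at the medium dose (SD, n = 3) and 34.6, 32.4 and 35.3 at the high dose. The high-dose libraries lay below all others of that extract, with a change from low to high of -0.64 ± 0.061 (SE, adjusted p = 4.74e-13). It also fell with Cimicifugae, from 47.8 ± 1.14 to 38.3, 38.6 and 40.4 CPM (-0.29 ± 0.059, SE, adjusted p = 0.000172). LATS2, the kinase that phosphorylates YAP and is itself a target, was called between low and high dose with Aconiti (0.27 ± 0.057, SE, to 40.2, 38.6 and 43.8 CPM) and in 0 of the other 5 extracts. Its change with Aconiti differed from that with Cimicifugae, Bupleuri and Banhasasim-tang but not past the threshold from that with Citri (adjusted p = 0.0793) or Yijung-tang (adjusted p = 0.082). The difference from Bupleuri (-0.24, adjusted p = 0.0123) lost its call without the second low-dose library (-0.203) or the third high-dose library (-0.174) of Aconiti.

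AJUBA, a LIM protein that binds LATS kinases, fell with Aconiti from 95.8, 94.6 and 85.6 CPM to 66.8, 68.6 and 68.2 (-0.44 ± 0.062, SE, adjusted p = 2.56e-08). With Yijung-tang it fell from 89.7, 87.4 and 90.0 CPM to 70.5, 68.9 and 67.9 (-0.37 ± 0.06, SE, adjusted p = 6.2e-06), again with no overlap. Falls were also called with Cimicifugae (-0.26 ± 0.06) and Citri (-0.20 ± 0.06), but both rest on groups with a library that stood apart. The third low-dose library of Citri read 73.1 CPM beside 92.4 and 92.9, and without it the change was -0.30. The third high-dose library of Cimicifugae read 64.5 CPM beside 81.5 and 84.3, and without it the change was -0.15. The call with Citri was lost in 6 of 13 alternatives (adjusted p from 1.66e-07 to 0.214), among them those without high-dose library 1 or 2 (-0.170 and -0.165) or low-dose library 1 or 2 (-0.141 and -0.139). The call with Cimicifugae was lost when only the groups compared were fitted (adjusted p = 0.091, from 1.77e-06 over its alternatives).

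Between low and medium dose few members were called, except with Aconiti. By edgeR's quasi-likelihood test 0 of the 10 were called with Citri (0.227% of all genes called), Cimicifugae (0.105%) and Yijung-tang (0.116%). An unadjusted p under 0.05 was reached by 2, 6 and 1 of them, and DESeq2 called 1, 0 and 0. Aconiti had 6 higher and 1 lower of 10 where 20.4% of all genes were called. CCN1, CCN2, ANKRD1, F3, AXL and AJUBA were higher and CCN4 lower. AJUBA's rise of 0.20 ± 0.059 (SE, adjusted p = 0.0119) lost its call without the first medium-dose library (0.180) or the third low-dose library (0.149), with adjusted p from 4.17e-05 to 0.109. From medium to high dose of Aconiti, 2 members were called higher (CCN1 and LATS2) and 7 lower (CCN2, CCN4, ANKRD1, THBS1, F3, AMOTL2 and AJUBA), where 47.1% of all genes were called. LATS2 lost that call without the second medium-dose library (0.133) or the third high-dose library (0.093), with adjusted p from 0.00772 to 0.237. CCN1 was thus called higher and CCN4 lower at each step, whereas CCN2, ANKRD1, F3 and AJUBA were called higher at the first step and lower at the second.

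**Figure D5:**
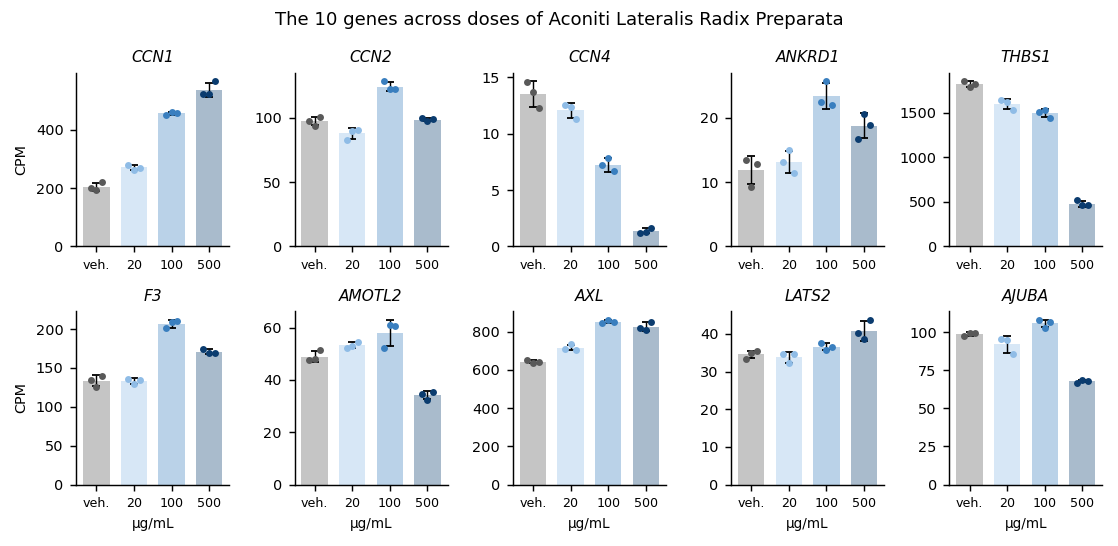
CPM of the 10 genes in the vehicle and at 20, 100 and 500 µg/mL of Aconiti, as bars for the mean ± SD of 3 libraries with a point per library. CCN1 rises at each dose, CCN2, ANKRD1 and F3 are highest at 100 µg/mL, and CCN4, THBS1 and AMOTL2 are lowest at 500 µg/mL.

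Against the vehicle, with the limits given above, the high dose of Cimicifugae had 8 of the 10 genes called lower and 0 higher (32.5% of all genes called) and that of Citri 7 lower and 0 higher (21.6%). Bupleuri had 5 higher and 1 lower (7.01%), Aconiti 5 and 4 (60.4%), Yijung-tang 2 and 4 (32%) and Banhasasim-tang 3 and 5 (16.8%). CCN2 was called lower than the vehicle at the low dose of Citri (-0.29, with 1.88% of all genes called), Cimicifugae (-0.40, 1.27%) and Banhasasim-tang (-0.28, 5.76%). The call with Citri was lost when only the groups compared were fitted (-0.283, adjusted p = 0.133, from 2.12e-07 over its alternatives). The low-dose means of Bupleuri (82.3), Aconiti (88.0) and Yijung-tang (91.9 CPM) also lay below the vehicle mean of 97.5 CPM, without a call. CCN1 was higher than the vehicle at the low dose of Yijung-tang (0.46, 6.38%), Aconiti (0.41, 2.19%) and Banhasasim-tang (0.24). The call with Banhasasim-tang was lost without the first low-dose library (0.183, adjusted p = 0.0635, from 2.15e-07 over its alternatives).

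Extracts of the same code set were also compared directly at the high dose. Citri lay above Cimicifugae in CCN1 (0.44 ± 0.054, SE), CCN2 (0.52 ± 0.061) and ANKRD1 (1.34 ± 0.143) and below it in CCN4 (-0.33 ± 0.072), with 6 of 10 members called where 12.3% of all genes were. When those 2 groups were fitted alone, 3 of 10 were called, and the count over all genes fell from 2107 to 267. Among the 6, THBS1 lost its call without the 2 libraries that stood apart (-0.118, adjusted p = 0.0766). Bupleuri lay below Aconiti in CCN1 (-0.39 ± 0.051) and ANKRD1 (-0.79 ± 0.109) and above it in CCN4 (2.97 ± 0.115), THBS1 (2.05 ± 0.041) and AMOTL2 (0.72 ± 0.06), with 9 of 10 called beside 58.4% of all genes. CCN2 was not called between Bupleuri and Aconiti there (-0.09 ± 0.058). Yijung-tang and Banhasasim-tang differed in 5 of 10 (23.8% of all genes), with Yijung-tang higher in CCN2 and ANKRD1 (0.62 ± 0.121) and lower in AJUBA, AXL and F3. At the low dose, 0 of 10 members were called between Citri and Cimicifugae (0.163%) or between the decoctions (0.0873%), and 1, AXL, between Bupleuri and Aconiti (0.535%). In the pairs with 0 by edgeR, an unadjusted p under 0.05 was reached by 2 and 4 members, and DESeq2 called 1 in each.

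The changes from low to high dose were also compared between all 15 pairs of extracts, each difference tested as an interaction. Aconiti differed from Citri in 9 of the 10 genes (46.4% of all genes called), from Cimicifugae in 9 (46.8%), from Bupleuri in 8 (44%), from Yijung-tang in 7 (47.4%) and from Banhasasim-tang in 9 (44.7%). CCN4 and THBS1 were called in all 5 of these pairs. Bupleuri differed from Cimicifugae in 8 (10.2%), from Citri in 7 (8.98%), from Yijung-tang in 5 (9.01%) and from Banhasasim-tang in 4 (1.7%), and CCN1 and F3 were called in each. Cimicifugae differed from Banhasasim-tang in 5 (12.4%), from Citri in 4 (11.2%) and from Yijung-tang in 3 (6.39%), with CCN1 and ANKRD1 called in each. The difference in CCN1 between Citri and Cimicifugae lost its call without the second low-dose (adjusted p = 0.0546) or the third high-dose library (0.0646) of Cimicifugae or the third high-dose library of Citri (0.0775), with adjusted p from 0.000388 over its alternatives. Banhasasim-tang differed from Citri in 4 (6.01%) and from Yijung-tang in 4 (10.1%). Without the 2 libraries that stood apart, the difference in CCN1 between Citri and Banhasasim-tang lost its call (-0.225, adjusted p = 0.0733). So did that in AMOTL2 between Citri and Bupleuri (-0.249, adjusted p = 0.05). Citri and Yijung-tang differed in CCN2 only, 1 of 10 (2.94%).

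Of the 8 YAP, TAZ, TEAD and VGLL genes tested, 1 was called higher and 6 lower with Aconiti between low and high dose, 2 lower with Cimicifugae, 3 lower with Banhasasim-tang, 2 higher with Yijung-tang and 0 with Citri and Bupleuri. Over all genes tested, 57.8% were called with Aconiti and 4.37% to 25.1% with the other 5 extracts, and the counts of lists here are to be read against those shares. YAP1 was higher with Aconiti (0.17) and lower with Cimicifugae (-0.15). WWTR1, the gene of TAZ, was called lower with Aconiti and higher with 1 other extract. With Aconiti the DNA-binding partners TEAD2 (-0.86) and TEAD1 (-0.23) and the cofactors VGLL4 (-0.62) and VGLL3 (-0.60) were lower. Of 23 Hippo kinases and regulators, 10 rose and 7 fell with Aconiti, 1 and 5 with Cimicifugae, 1 and 3 with Citri, 2 and 3 with Yijung-tang, and 2 and 0 with Bupleuri and with Banhasasim-tang. This list holds the members LATS2, AMOTL2 and AJUBA, so their calls given above are counted in it again. PTPN14 stands both in this list and among the further YAP targets below. The Hippo scaffold FRMD6 was higher with Aconiti (0.61), Bupleuri (0.14) and Banhasasim-tang (0.12) and lower with Cimicifugae (-0.30) and Yijung-tang (-0.27), WWC1 was lower with 4 extracts (-0.17 to -0.70) and the kinase STK3 higher with 3 (0.13 to 0.37).

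Of 15 further YAP targets, 5 rose and 0 fell with Bupleuri, 3 and 6 with Aconiti, 3 and 3 with Banhasasim-tang, 1 and 3 with Yijung-tang, and 0 rose and 7 fell with Citri and with Cimicifugae. CCDC80 was lower with 5 extracts (-0.66 with Aconiti) and MYOF with 4. GADD45A, a stress gene as well, was higher with Aconiti (2.31), Bupleuri (0.46) and Banhasasim-tang (0.34). NT5E was higher with Yijung-tang (0.25), Banhasasim-tang (0.23) and Bupleuri (0.13) and lower with Aconiti (-0.14), and FJX1 was lower with Citri (-0.38), Yijung-tang (-0.27) and Cimicifugae (-0.19) and higher with Bupleuri (0.23). Without the libraries that stood apart, Citri gave 1 higher and 6 lower and Cimicifugae 0 and 9. Of 10 receptors of CCN proteins and thrombospondins, 4 were called higher and 4 lower with Aconiti, 3 and 1 with Banhasasim-tang, 1 and 2 with Cimicifugae, 1 and 1 with Citri, 0 and 2 with Yijung-tang and 0 with Bupleuri. LRP1 and ITGB1 were each called higher with 1 extract and lower with 2, CD36 higher with 1 and lower with 1, and ITGA5 lower with 2. Integrin ITGB3 was called higher with 2 extracts, by 2.00 with Aconiti.

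Members were also compared by how their group means moved across the 18 extract-by-dose groups, with each extract's mean taken away. This is a description over groups that share code sets, with no test. Of the members, CCN1 moved most like F3 (Pearson r = 0.79 over 18 groups and 0.81 over the 15 without Aconiti), and CCN2 most like ANKRD1 (0.80 and 0.76). CCN1 and CCN2 were less alike (0.45 and 0.39). THBS1 moved with AMOTL2 (0.94 and 0.71) and AJUBA (0.82 and 0.88). Its likeness to CCN4 (0.96) was lower without Aconiti (0.57). Some pairs even changed sign when Aconiti was left out. Among them, THBS1 with AXL went from -0.06 to 0.85, CCN1 with THBS1 from -0.44 to 0.45 and CCN1 with AMOTL2 from -0.20 to 0.68. Among 11119 genes of at least 5 CPM, the 5 most like CCN1 were GTF2E2 (0.91), WWC2 (0.89), MGLL (0.89), KLF7 (0.88) and NPIPA1 (0.88), with F3 at rank 101 and CCN2 at rank 3118. The 5 most like CCN2 were ARFRP1 (0.91), SPHK1 (0.87), EPHA2 (0.83), EEF1D (0.81) and ANKRD1 (0.80), with CCN1 at rank 436.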

How the data were processed

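RNA of SW1783 cells was sequenced as 60 libraries, of which 57 in 19 groups of 3 entered the tests. The libraries came from a directional MGI kit and were read from both ends, per the labels' protocols. The submitters' processing notes name RSEM 1.3.3, STAR 2.7.3a, Trim Galore 0.6.5 and FastQC 0.11.9, and the builds hg38 and GRCh38. Neither the annotation release nor whether counting used the strand is given in the sources used here, so reads of overlapping or antisense genes may not have been told apart. The values deposited by the authors were expected counts per gene, the estimates RSEM makes, and 9.22% of them were not whole. Symbols were found for 41209 of the 60675 identifiers, and 57055 were in the annotation used for coordinates and exon lengths.

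Expected counts were rounded to integers and filtered with filterByExpr by group, which left 17191 genes. They were then scaled by TMM (factors 0.917 to 1.05) and fitted together with edgeR 4.0.16 (glmQLFit, glmQLFTest) in R 4.3.3. Adjusted p-values are Benjamini-Hochberg over all genes tested in a comparison. The comparisons were each dose against the vehicle, doses of an extract, extracts of a code set at one dose, and 15 differences between extracts in the change from low to high dose. The script was tested on simulated data. The vehicle is 0.1% DMSO by the sample labels and 2% in the design text, and the positive controls and other extracts that text names are not analysed here.

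All 10 members are named. From each gene list up to 5 genes are named, those called in the most of the 6 high against low comparisons, with ties broken by the larger median change, and from the likeness ranking the 5 nearest genes. Lists of 5 or fewer genes are named whole. WWTR1, which that rule left out, is named as well because it encodes TAZ. Members and lists were chosen with earlier results of these data known. Alternatives were DESeq2 1.42.0, its size factors in edgeR, no filter, only the groups compared, a replicate block, and leaving out each library. A further alternative, without the 2 libraries that stood apart, was chosen after seeing the data.

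Replicate libraries differed by 1.74 to 21.9 times sampling noise (chi-square per degree of freedom over genes with at least 20 counts), so each counted as 1 sample. The labels do not say that replicates came from separate cultures, so p-values measure only how these samples vary, and that variation may be technical. Same-numbered libraries of an extract's high dose and of the vehicle or its low dose did not deviate together (correlations -0.05 to 0.059). The numbers were therefore not taken as pairs, but the other comparisons were not checked for this. Between Citri and Cimicifugae at the low dose, a replicate block over all libraries raised the count of all genes called from 28 to 144.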

Additional observations from a re-analysis of the deposited data

Results flagged for a closer look

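The number of members whose change from low to high dose differed between 2 extracts, by the interaction test with edgeR's quasi-likelihood method, is collected here for all 15 pairs. For Aconiti it was 9 against Citri, 9 against Cimicifugae, 8 against Bupleuri, 7 against Yijung-tang and 9 against Banhasasim-tang, where 44% to 47.4% of all genes were called. For Bupleuri it was 8 against Cimicifugae, 7 against Citri, 5 against Yijung-tang and 4 against Banhasasim-tang, where 1.7% to 10.2% of all genes were called. The other pairs gave 5 (Cimicifugae and Banhasasim-tang), 4 (Citri and Cimicifugae), 4 (Citri and Banhasasim-tang), 4 (Yijung-tang and Banhasasim-tang), 3 (Cimicifugae and Yijung-tang) and 1 (Citri and Yijung-tang), where 2.94% to 12.4% of all genes were called.

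Single libraries moved 3 of these counts by over 1.5 times. Citri and Banhasasim-tang differed in 2 without high-dose library 2 of Citri, Cimicifugae and Banhasasim-tang in 3 without low-dose library 2 of Cimicifugae, and Citri and Yijung-tang in 2 without high-dose library 3 of Citri. Without both libraries that stood apart, Cimicifugae and Yijung-tang differed in 5.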

How the results depend on the processing

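Of the 120 member changes at the high dose, against the vehicle or the low dose, 79 were called. Of these, 63 kept direction and call under every alternative, 16 lost the call under at least 1, and 0 reversed. The number of members called between low and high dose of Citri ran from 3 to 7 when single libraries were left out (7 without the third high-dose library). In the joint fit it was 4, with 18.2% of all genes called. For Bupleuri it was 8 when only the groups compared were fitted. In the joint fit it was 5, with 4.37% of all genes called. All sign changes were in members that were not called. F3 with Citri went from 0.00 to 0.002 with no filter and to 0.038 without the 2 libraries that stood apart, CCN4 with Cimicifugae from -0.01 to 0.033 without those libraries, and F3 with Yijung-tang from 0.01 to -0.003 with no filter. Left-out libraries gave these ranges between low and high dose: F3 from -0.08 to 0.041 with Citri and from -0.032 to 0.049 with Yijung-tang, CCN1 from -0.045 to 0.04 with Yijung-tang, and with Cimicifugae CCN4 from -0.087 to 0.04 and LATS2 from -0.096 to 0.017. Against the vehicle they were CCN1 with Citri from -0.003 to 0.097, LATS2 with Bupleuri from -0.031 to 0.009, CCN2 with Aconiti from -0.011 to 0.037, AMOTL2 with Banhasasim-tang from -0.031 to 0.038, and with Yijung-tang ANKRD1 from -0.256 to 0.001 and LATS2 from -0.076 to 0.024. The cause was not tested.

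With a replicate block over all libraries, 2 members were called at the medium against the low dose of Bupleuri (1 without it), and against the vehicle 2 at the low dose of Citri (1) and 2 at the low dose of Bupleuri (0). With that block, all 12 counts of members at the high dose, against the vehicle or the low dose, stayed within 1.5 times. Counts of all genes depended more on the fit. With only the groups compared, the calls between low and high dose were 1063 for Citri (3134 in the joint fit) and 1568 for Cimicifugae (4320), and against the vehicle 2867 for Cimicifugae (5592). Citri and Cimicifugae differed at the high dose in 267 genes when fitted alone and 1345 without the 2 libraries that stood apart (2107). Their dose changes differed in 428 without those libraries (1919), and those of Citri and Yijung-tang in 271 (506). Without library 3 of the low dose of Citri, 2007 genes were called between its low and high dose, without library 1 of the high dose of Bupleuri 496 (751), and without library 1 of the vehicle 782 for Bupleuri against it (1205). Between low and medium dose, where few genes were called, no filter raised the count from 39 to 378 for Citri, from 18 to 126 for Cimicifugae, from 7 to 101 for Bupleuri, from 20 to 90 for Yijung-tang and from 87 to 168 for Banhasasim-tang. Fits with 2 libraries left in a group assume that group varies like the others.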

Other observations

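Further gene lists were counted between the low and the high dose, by edgeR's quasi-likelihood test. All these counts are to be read against the share of all genes called in the same comparison. That share was 57.8% with Aconiti, 25.1% with Cimicifugae, 21.7% with Yijung-tang, 18.2% with Citri, 6.67% with Banhasasim-tang and 4.37% with Bupleuri. Of 14 targets of MRTF and SRF, the actin-sensing factors, 11 were called lower with Citri and with Cimicifugae, 12 with Yijung-tang, 10 with Banhasasim-tang and with Aconiti, and 3 with Bupleuri, while 3 were called higher with Aconiti and 0 with the other 5. The smooth muscle actin ACTA2 fell with all 6 extracts (log2 change -0.26 with Bupleuri to -1.11 with Aconiti), and so did tropomyosin TPM1 (-0.15 to -0.68) and vinculin VCL (-0.10 to -0.44). ACTG1 and CNN2 fell with 5 each. The median log2 change of the list ran from -0.41 with Aconiti to -0.03 with Bupleuri, beside 0.000 to 0.011 over all genes tested. Without the 2 libraries that stood apart, 11 and 12 of the list fell with Citri and Cimicifugae.

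Of 11 immediate early genes, 9 were called higher and 0 lower with Yijung-tang, 7 and 2 with Aconiti, 5 and 0 with Cimicifugae and with Banhasasim-tang, 4 and 0 with Bupleuri and 4 and 3 with Citri. The median log2 change of these genes ran from 0.20 with Banhasasim-tang to 0.40 with Aconiti. Without the libraries that stood apart, Cimicifugae gave 2 and 0 and Citri 4 and 1. The AP-1 member FOSL1 rose with 5 extracts (0.96 with Aconiti, 0.41 with Bupleuri) and fell with Citri (-0.27). IER3 rose by 3.25 with Aconiti and by 1.75 with Banhasasim-tang, and DUSP1 by 1.66 and MYC by 1.46 with Aconiti. JUN rose with 4 extracts and fell with Citri (-0.13). Of 9 TGF-beta targets, 7 were lower with Aconiti, 6 with Cimicifugae, 5 with Bupleuri and 3 with each of the other 3 extracts, and 1 was higher with each of Bupleuri, Aconiti, Yijung-tang and Banhasasim-tang. COL1A1 fell with 5 of them (-1.96 with Aconiti).

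Bojungikgi-tang, with 1 library per dose and so no replicate check, gave CCN1 at 266.6, 251.4 and 255.4 CPM and CCN2 at 86.5, 70.6 and 63.7 CPM from low to high dose. ANKRD1 stood at 10.3, 8.86 and 6.67 CPM, THBS1 at 1691, 1718 and 1525 CPM and CCN4 at 14.1, 13.6 and 12.1 CPM in the same libraries. The ratio of CCN1 to CCN2 was 3.08, 3.56 and 4.01.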
